A study of Caenorhabditis elegans with 10 samples.

Results

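The genes described here encode the acetylcholine and GABA receptors of the C. elegans body wall muscle and the proteins that cluster, assemble or modulate them. They are 10 of the 46756 genes listed in the count table. They were chosen by name for their known role, at a time when earlier results of these data were known. The receptor subunits are unc-38, unc-63, unc-29 and lev-1 of the levamisole-sensitive acetylcholine receptor (L-AChR), acr-16 of the nicotine-sensitive acetylcholine receptor (N-AChR), and unc-49 of the GABA-A receptor. The clustering and assembly factors are lev-10, oig-4, molo-1 and ric-3. All 10 symbols matched a gene identifier of the table.

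At the neuromuscular junctions of the worm, cholinergic motor neurons contract the body wall muscle and GABAergic motor neurons relax it. Acetylcholine opens the L-AChR, an ion channel built from several different alpha and non-alpha subunits, and the N-AChR, which is built from ACR-16 alone, whereas GABA opens the UNC-49 chloride channel. Subunits are folded and joined in the endoplasmic reticulum with the help of dedicated chaperones, and finished receptors are held opposite the nerve terminals by secreted and transmembrane scaffold proteins. Several of these genes, unc-29, unc-38, unc-63, lev-1 and ric-3 among them, are also used in neurons, so RNA from whole larvae holds the contribution of both tissues.

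The study asked which genes depend on PBRM-1, a subunit of the PBAF chromatin remodeling complex, in the mesoderm, and sequenced polyA RNA of whole hermaphrodite early L1 larvae of the strains RA678, called pbrm-1(TS-KO), and RA685, called pbrm-1(control). In both strains the only copy of the target is pbrm-1(rd31[pbrm-1::GFP(flox)]), a GFP-tagged allele with loxP sites, and both carry a loss-of-function unc-119 allele with rescuing Caenorhabditis briggsae unc-119. The unc-119 allele is written ed3 in the strain list of the study, whereas the methods name ed9 for the worms in which the insertions were made. The TS-KO strain carries rdIs74, a single-copy insertion in which the hnd-1 promoter drives Cre recombinase and a GFP nanobody joined to ZIF-1, which excise the last exons of the gene with the GFP sequence and degrade the tagged protein. The control strain carries rdIs79, in which the same promoter drives ZIF-1 without nanobody or Cre. The hnd-1 promoter is active in the mesodermal lineages that give body wall muscle and the gonad precursors, and the study observed a few TS-KO larvae without GFP in any cell. Embryos of both strains were left to hatch overnight without food. Each strain gave 5 libraries, with replicate numbers 1, 4, 5, 6 and 7. The study ran its replicates on different days, with both strains grown side by side. The labels do not say which libraries share a day, and same-numbered libraries were taken as pairs.

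The libraries held 35922561 to 46553938 counted reads, and 16817 genes passed a filter on low counts and were tested. Control replicate 5 stood apart on the first principal component, at -56.8 against -20.4 to 2.65 for the other control libraries and 16.2 to 24.3 for the TS-KO libraries. The targeted gene pbrm-1 had a level of 247 ± 11.5 CPM (reads scaled to library size, SD, n = 5) in TS-KO and 263 ± 23.9 in control libraries, and edgeR's quasi-likelihood test did not call it (adjusted p = 0.433). This value checks the labels little, since the deletion takes place in some tissues only and leaves the upstream exons in place. The study likewise did not find pbrm-1 by gene counts, and its own test per exon found most of the deleted exons reduced in TS-KO. None of the marker genes for the tissues of the larva was at 0 in any library. Among 10 body wall muscle markers, edgeR called 2 lower in TS-KO, unc-27 and mup-2, both thin filament troponin genes. The summed level of the list was 17678 to 21541 CPM in TS-KO and 19435 to 21014 CPM in control libraries, of which unc-54 alone had means of 10711 and 10718 CPM. By estimate, 8 of these markers were lower and 2 higher in TS-KO (median log2 fold change -0.09). All 5 pharyngeal muscle markers were lower (median -0.10), whereas 10 of 12 neuronal markers were higher (median 0.04). By edgeR, none of 12 neuronal markers, 8 cholinergic and GABAergic neuron markers, 5 pharyngeal muscle markers or 4 epidermal markers was called, and 1 of 5 intestinal markers (vha-6) and 2 of 5 germline markers (glh-1 and deps-1) were called higher. The summed level of the epidermal list was 208 CPM in control replicate 5, against 122 to 140 CPM in the other control libraries. Its marker dpy-7 ranged from 1.75 to 67.5 CPM in control and from 1.71 to 3.09 CPM in TS-KO libraries. Over all genes tested, edgeR called 7.72%. Other fits called more of the marker genes, and also a larger share of all genes. That share was 11.7% of the genes adjusted by DESeq2, 17.2% by limma-voom and 10.9% by edgeR with the replicate number as a block. DESeq2 also called pat-10 of body wall muscle (adjusted p = 0.0475), limma-voom called pat-10 (0.0125), myo-3 (0.0436), the pharyngeal myosin gene myo-2 (0.0197), the neuronal gene rgef-1 (0.0325) and the intestinal genes elt-2 and ges-1, and edgeR with the replicate number as a block called myo-2 (0.0413) and the germline gene pgl-1 (0.0398). The part of these tissues in the values of the receptor genes was not tested.

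No gene of the receptor and assembly set was called between the strains by edgeR at an adjusted p of at most 0.05. The members had log2 fold changes (TS-KO minus control) from -0.18 to 0.23, 8 of them negative and 2 positive, with a median of -0.07. Over all genes tested, the median was 0.00045 and edgeR called 7.72%, with 720 genes lower and 579 higher in TS-KO. At an unadjusted p under 0.05, 4 of the 10 members passed, against 24.1% of all genes. DESeq2, the test that the study itself used at this threshold, called 2 members, lev-10 and ric-3, against 11.7% of the genes it adjusted. The fit by limma-voom with sample quality weights called 4 (unc-38, unc-49, lev-10 and ric-3), against 17.2%. The CPM values of the strains did not overlap for 3 members, lev-1, lev-10 and ric-3, all lower in TS-KO, and 4.91% of all genes tested had lower values that did not overlap. Without control replicate 5, edgeR again called 0 members, and the adjusted p was 0.126 for lev-10 and 0.146 for ric-3. In RNA of whole larvae, fewer cells of a type and less RNA per cell cannot be told apart.

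**Figure D1:**
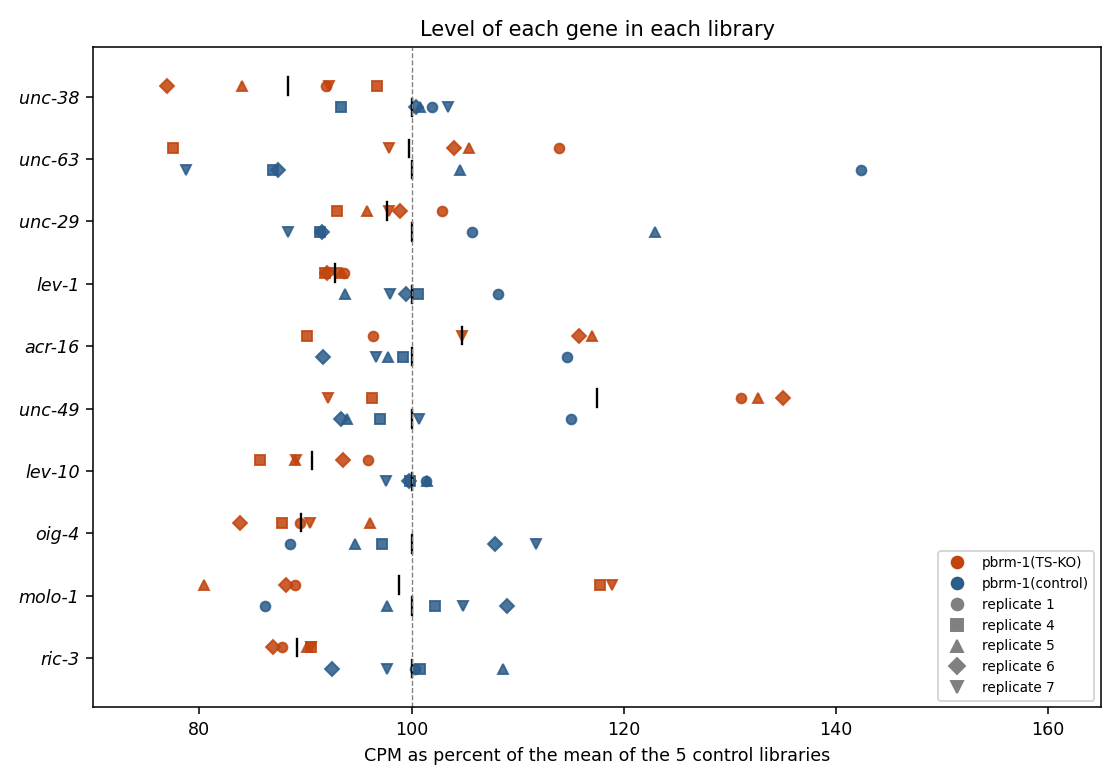
Level of each of the 10 genes in each of the 10 libraries, as CPM in percent of the mean of the 5 control libraries. Colors mark the strain, symbols the replicate number and black bars the strain mean. The TS-KO libraries lie at 85.7% to 95.9% for lev-10 and 86.9% to 90.5% for ric-3, below every control library, whereas the unc-49 values of TS-KO range from 92.1% to 135%.

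The clustering scaffold lev-10 had the smallest p of the set. It encodes a transmembrane protein with CUB domains that is needed to gather L-AChRs at the synapse, and lies on chromosome I from 14390333 to 14400226 on the plus strand (WBcel235) with 14 exons. In the TS-KO libraries its level was 142, 127, 132, 139 and 132 CPM for replicates 1, 4, 5, 6 and 7. In the control libraries it was 150.0, 148, 150.2, 148 and 144 CPM in the same order. Every TS-KO library was therefore below every control library, from which it follows that all 5 pairs had the same direction. Their log2 differences were between -0.22 and -0.08. Strain means were 134 ± 6.00 and 148 ± 2.32 CPM (SD, n = 5), or 90.7% of the control level in TS-KO. The log2 fold change was -0.14 (SE 0.0400), with an adjusted p of 0.0548 in edgeR, 0.0216 in DESeq2 and 0.0475 in limma-voom. Without TS-KO replicate 1, the highest of the TS-KO libraries, the edgeR value became 0.0453, the lowest of 15 fits that left out a library or a pair (0.0453 to 0.223). In the annotation, 92.0% of the exonic bases of lev-10 are shared with eat-18 on the same strand, a gene for a small transmembrane protein of pharyngeal acetylcholine receptors. The counts of eat-18 were 252 to 398 per library against 4881 to 6529 for lev-10, and how reads in the shared exons were assigned was not tested.

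The chaperone ric-3 showed a difference of similar size. RIC-3 resides in the endoplasmic reticulum and promotes maturation of acetylcholine receptors of several subtypes. The gene is on chromosome IV from 7818251 to 7821195, plus strand, in 3 exons. Its TS-KO levels were 41.9, 43.2, 43.0, 41.5 and 43.2 CPM for replicates 1, 4, 5, 6 and 7, a narrow range. Control levels were 47.9, 48.1, 51.8, 44.2 and 46.6 CPM, and the lowest of them, replicate 6, was still above the highest TS-KO library. It follows that all 5 pairs were lower in TS-KO, by log2 differences of -0.27 to -0.09. The means of 42.6 ± 0.812 and 47.7 ± 2.78 CPM (SD, n = 5) gave a log2 fold change of -0.17 (SE 0.0483), or 89.2% of the control level. The adjusted p was 0.0619 in edgeR, 0.0272 in DESeq2 and 0.0296 in limma-voom. Leaving out control replicate 6 gave an adjusted p of 0.0413 in edgeR, the lowest of the 15 fits, and the other 14 fits did not call the gene (up to 0.215).

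Of the other assembly factors, oig-4 and molo-1 overlapped between the strains. OIG-4 is a small secreted immunoglobulin-domain protein of muscle that stabilizes the complex of L-AChR and LEV-10, and its gene is on chromosome II from 7613541 to 7614435, plus strand, in 4 exons. The TS-KO libraries had 11.3, 11.1, 12.1, 10.6 and 11.4 CPM of oig-4 for replicates 1, 4, 5, 6 and 7. The control libraries had 11.2, 12.3, 11.9, 13.6 and 14.1 CPM. Control replicates 6 and 7 were the highest, control replicate 1 lay within the TS-KO range, and 3 of 5 pairs were lower in TS-KO. The fold change was -0.16 on the log2 scale (SE 0.0766, 95% interval -0.33 to 0.0087, edgeR adjusted p = 0.232). A gene on the opposite strand, R07G3.7, covers 30.7% of the exonic bases of oig-4 and had 484 to 859 counts per library, against 397 to 622 for oig-4. Whether the counting used strand is not given in the sources used here, so reads from the 2 genes in the shared stretch cannot be told apart.

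MOLO-1 is a single-pass membrane protein that joins the L-AChR as an auxiliary subunit and promotes its gating. The gene lies on chromosome III from 5573994 to 5577014, plus strand, with 7 exons. Its level was 27.7, 36.6, 25.03, 27.4 and 37.0 CPM in TS-KO replicates 1, 4, 5, 6 and 7, and 26.8, 31.8, 30.4, 33.9 and 32.6 CPM in the control replicates. TS-KO replicates 4 and 7 were above every control library and TS-KO replicate 5 was below every one, so the means of 30.7 ± 5.62 and 31.1 ± 2.72 CPM (SD, n = 5) were close while the TS-KO values spread widely. The log2 fold change of -0.02 had a 95% interval of -0.27 to 0.24 (edgeR adjusted p = 0.953).

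The alpha subunits of the L-AChR differed in how firmly their levels were measured. For unc-38 (chromosome I, 4897620 to 4900974, minus strand, 8 exons), the TS-KO libraries had 18.7, 19.7, 17.1, 15.6 and 18.8 CPM in replicates 1, 4, 5, 6 and 7. The control libraries had 20.7, 19.0, 20.5, 20.4 and 21.0 CPM. The groups touched only through TS-KO replicate 4, which exceeded control replicate 4, and 4 of 5 pairs were lower in TS-KO. The log2 fold change was -0.18 (SE 0.067, 95% interval -0.32 to -0.03), the most negative of the set, with an adjusted p of 0.132 in edgeR and 0.0345 in limma-voom. For unc-63 (chromosome I, 5141673 to 5149226, plus strand, 10 exons), TS-KO values were 9.74, 6.63, 9.02, 8.90 and 8.37 CPM and control values were 12.2, 7.43, 8.95, 7.47 and 6.73 CPM. Control replicate 1 was the highest library and TS-KO replicate 4 the lowest, and every other TS-KO library lay within the wider control range. The log2 fold change of unc-63 was -0.0048, with a 95% interval of -0.36 to 0.35 (edgeR adjusted p = 0.990). A difference of up to that size in either direction was therefore not excluded by these libraries.

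The non-alpha subunits unc-29 and lev-1 also were not called. UNC-29 is an essential subunit of the channel, and LEV-1 is needed for its full sensitivity to levamisole. For unc-29 (chromosome I, 8897632 to 8901435, minus strand, 12 exons), the TS-KO values were 13.2, 11.9, 12.3, 12.7 and 12.5 CPM. The control values were 13.5, 11.7, 15.7, 11.7 and 11.3 CPM, of which replicate 5 was the highest. The TS-KO libraries all lay inside the control range, and the log2 fold change was -0.03 (SE 0.0925, 95% interval -0.24 to 0.17, edgeR adjusted p = 0.859).

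For lev-1 (chromosome IV, 13174157 to 13179395, minus strand, 2 annotated transcripts), the TS-KO values were 29.7, 29.2, 29.7, 29.2 and 29.5 CPM in replicates 1, 4, 5, 6 and 7. The control values were 34.4, 32.0, 29.8, 31.6 and 31.1 CPM. The TS-KO libraries were nearly level with each other and all below the control libraries, although control replicate 5 was only just above the highest TS-KO library. Means were 29.5 ± 0.252 and 31.8 ± 1.67 CPM (SD, n = 5). All 5 pairs were lower in TS-KO, which follows from ranges that do not overlap. The log2 fold change was -0.11 (SE 0.0468), with an adjusted p of 0.186 in edgeR and 0.165 without control replicate 5.

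The N-AChR subunit gene acr-16 (chromosome V, 8561216 to 8564345, plus strand, 10 exons) was among the 2 members with a positive estimate. TS-KO values were 8.23, 7.70, 9.99, 9.88 and 8.94 CPM in replicates 1, 4, 5, 6 and 7, and control values were 9.79, 8.47, 8.35, 7.83 and 8.25 CPM. The lowest library and the 2 highest were all TS-KO, and the groups overlapped. The log2 fold change was 0.07 with a 95% interval of -0.14 to 0.28 (edgeR adjusted p = 0.708).

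The GABA-A receptor gene unc-49 had the highest estimate and among the widest spreads within TS-KO. The locus encodes several receptor subunits by alternative splicing and lies on chromosome III from 10520762 to 10532705, plus strand, with 14 annotated transcripts, which counts per gene do not separate. TS-KO replicates 1, 5 and 6 had 169, 171 and 174 CPM, whereas TS-KO replicates 4 and 7 had 124 and 118.98 CPM. The control libraries had 149, 125, 121, 121 and 130 CPM in replicates 1, 4, 5, 6 and 7, so that 3 TS-KO libraries were above all controls and TS-KO replicate 7 was below all of them. The means of 152 ± 27.5 and 129 ± 11.5 CPM (SD, n = 5) gave a log2 fold change of 0.23 (SE 0.116, 95% interval -0.02 to 0.49). The adjusted p was 0.251 in edgeR, 0.231 in DESeq2 and 0.0170 in limma-voom, which gives unequal weight to the libraries. Within same-numbered pairs, the log2 differences of replicates 1, 5 and 6 were 0.19, 0.50 and 0.53, and those of replicates 4 and 7 were -0.01 and -0.13. Over all genes tested, TS-KO replicates 5 and 6 each correlated best with control replicate 1, so the pairing behind their differences is uncertain.

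**Figure D2:**
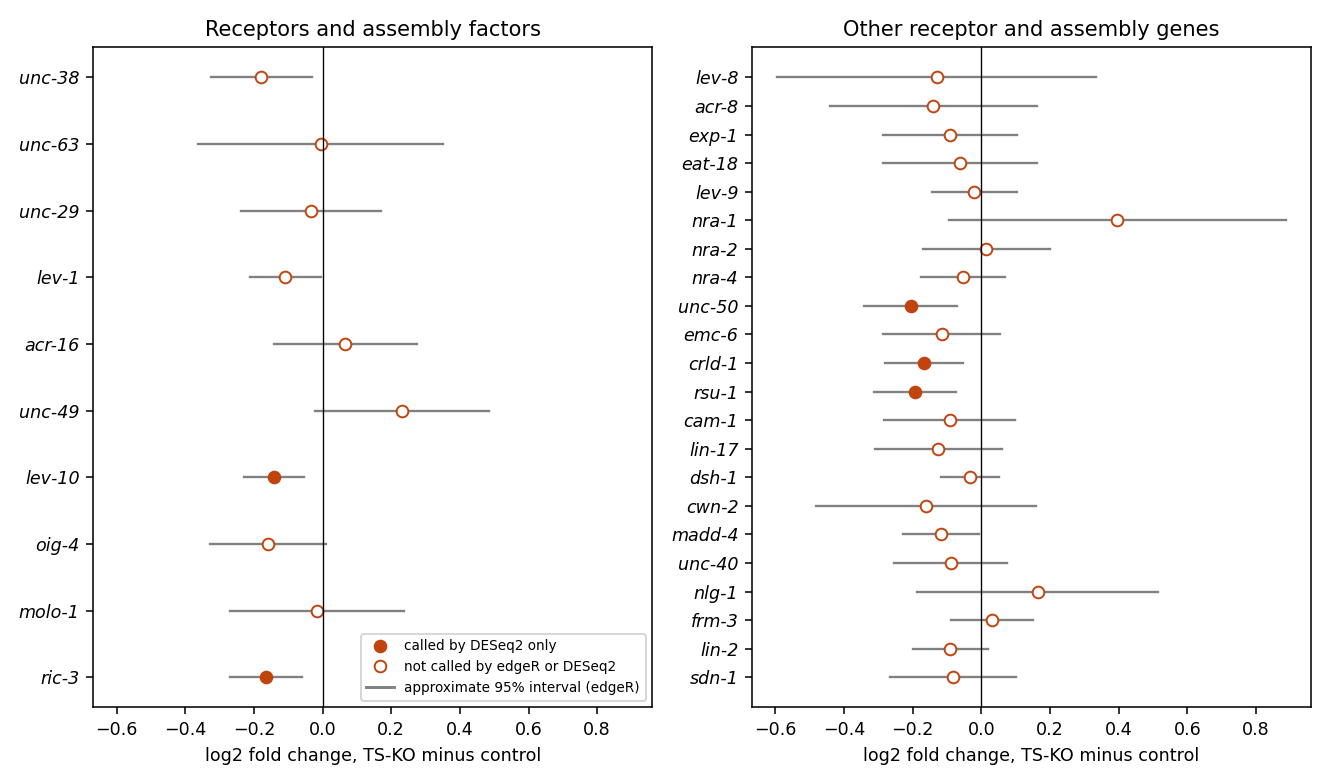
Log2 fold changes (TS-KO minus control, x axis) with approximate 95% intervals from edgeR for the 10 genes (left) and for 22 further receptor and assembly genes (right). Filled points were called by DESeq2 and not by the main edgeR fit, and open points by neither. Calls by the other fits are not marked. The filled points are lev-10 and ric-3 on the left and unc-50, crld-1 and rsu-1 on the right, all below 0.

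Further genes of the same pathway also had small estimates. A list of 23 other subunits, clustering factors and assembly proteins was drawn up by name, of which 22 matched a gene of the table and all 22 were tested. None was called by edgeR, 18 had negative and 4 positive log2 fold changes, and the median was -0.09 with a range of -0.21 to 0.40. At an unadjusted p under 0.05, 4 of the 22 passed in edgeR, against 24.1% of all genes, and limma-voom called 3 (rsu-1, nra-1 and madd-4), against 17.2%. DESeq2 called 3 of the 22 genes, against 11.7% of all genes it adjusted, a share near the background. The 3 genes, each lower in TS-KO, were rsu-1, which encodes a Ras suppressor protein that keeps the balance between synaptic and extrasynaptic receptors, unc-50, which encodes a Golgi protein that L-AChR subunits need to reach the surface, and crld-1, which encodes an endoplasmic reticulum protein for L-AChR assembly.

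The level of unc-50 was 33.3, 30.4, 33.4, 34.2 and 29.2 CPM in TS-KO replicates 1, 4, 5, 6 and 7 and 35.8, 34.1, 38.9, 39.6 and 36.7 CPM in the control replicates. TS-KO replicate 6 just exceeded control replicate 4, and all 5 pairs were lower in TS-KO. The log2 fold change was -0.21 (SE 0.0618), with an adjusted p of 0.0671 in edgeR, 0.0314 in DESeq2 and 0.0345 in edgeR with the replicate number as a block, a fit that called 10.9% of all genes and none of the 10 members. Values of rsu-1 were 49.2 to 54.6 CPM in TS-KO and 56.4 to 67.0 CPM in control libraries, without overlap, with a log2 fold change of -0.19 (SE 0.0544) and an adjusted p of 0.0527 in edgeR and 0.0185 in DESeq2. Without control replicate 7, the lowest control library for rsu-1, the edgeR value was 0.0481. For crld-1, the ranges of 22.6 to 23.6 and 24.6 to 28.0 CPM also did not overlap, and the log2 fold change of -0.17 had an adjusted p of 0.0732 in edgeR and 0.0491 in DESeq2.

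Genes that work beside the members at the synapse were not called by edgeR or DESeq2. The secreted partner of LEV-10 in L-AChR clusters, lev-9, had a log2 fold change of -0.02 (edgeR adjusted p = 0.861), and the alpha subunit lev-8, with 129 to 244 counts per library, had -0.13 (edgeR adjusted p = 0.745, 95% interval -0.59 to 0.33). The synaptic organizer madd-4, which motor neurons secrete to position both receptor classes, had -0.12 (edgeR adjusted p = 0.180). The neuroligin nlg-1, which clusters GABA-A receptors in muscle, had 0.16 (edgeR adjusted p = 0.570). The copine gene nra-1, which promotes surface expression of the L-AChR, had the highest estimate of the list, 0.40 (edgeR adjusted p = 0.311).

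Per kilobase of merged exons, the scaffold lev-10 was the most abundant of the 10 genes and acr-16 the least. Over the 10 libraries, lev-10 had 47.8 ± 2.87 CPM per kilobase (SD), and unc-49 followed at 34.2 ± 5.63, ric-3 at 28.3 ± 2.09, molo-1 at 25.2 ± 3.40 and oig-4 at 20.9 ± 1.97. The acetylcholine receptor subunits were lower, with lev-1 at 16.2 ± 0.875 CPM per kilobase, unc-38 at 11.4 ± 1.02, unc-29 at 7.84 ± 0.798, unc-63 at 5.26 ± 1.02 and acr-16 at 4.80 ± 0.472. The order of the means was the same in both strains. The ranges over libraries did not overlap between lev-10 and unc-49, between oig-4 and lev-1 and between lev-1 and unc-38, and the ranges of all other neighbours overlapped. The place of unc-49 depends on its many transcripts, since the length of its longest transcript in place of all its exons gave 53.9 CPM per kilobase, above lev-10. For lev-10, the reads it shares with eat-18 make the level uncertain. The level of oig-4 is also uncertain, since R07G3.7 on the opposite strand covers 30.7% of its exonic bases. Among the genes tested that had a length, lev-10 stood at the 86.9 percentile of the level per kilobase and acr-16 at the 39.0 percentile.

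**Figure D3:**
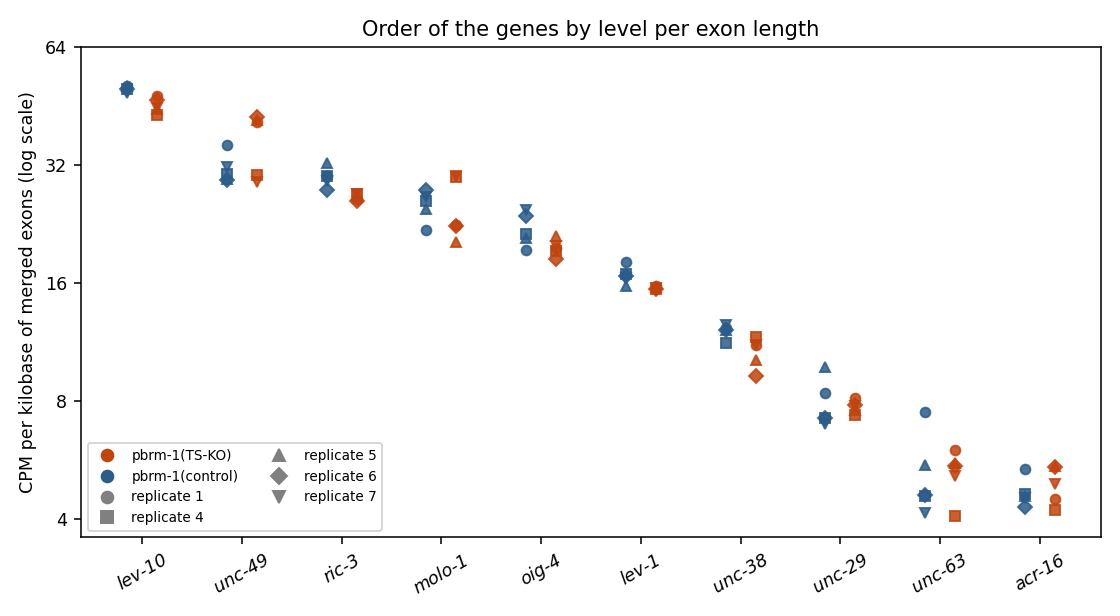
CPM per kilobase of merged exons (log axis) of each gene in each library, ordered by the mean over the 10 libraries. Colors mark the strain and symbols the replicate number. The means run from 47.8 for lev-10 to 4.80 for acr-16, and the points of both strains lie together for every gene relative to the distance between the ends of the order.

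How closely libraries of a strain resembled each other differed among the 10 genes. The SD of log2 CPM within strains was 0.05 for lev-10, 0.05 for lev-1 and 0.06 for ric-3, at the 1.66, 2.77 and 5.30 percentiles of all genes tested. It was 0.28 for unc-63, 0.21 for unc-49 and 0.21 for molo-1, against a median of 0.17 over all genes tested. The 3 genes whose strains did not overlap were thus the 3 with the smallest spread, while the fold changes of unc-38 and oig-4, which did overlap, were as large.

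Ratios of counts within a library do not depend on the scaling between libraries, and none of 8 such ratios separated the strains. Relative to unc-29, the count of lev-1 was 2.26 to 2.45 in TS-KO and 1.89 to 2.75 in control libraries, and that of unc-38 was 1.24 to 1.65 and 1.30 to 1.86. The ratio of unc-63 to unc-29 was 0.557 to 0.740 in TS-KO and 0.568 to 0.900 in control libraries. For the scaffold, the ratio of lev-10 to unc-29 was 10.5 to 10.9 in TS-KO, a narrow range inside the 9.54 to 12.8 of the control libraries. The differences of the mean log2 ratios (TS-KO minus control) were -0.16 for unc-38, 0.04 for unc-63, -0.08 for lev-1, 0.09 for acr-16, 0.24 for unc-49 and -0.12 for lev-10. Control replicate 5, in which unc-29 was at its highest, gave the lowest control ratio for 6 of the 7 genes compared with unc-29. For lev-1 and lev-10, this library alone made the strains overlap. The other control libraries had ratios of 2.54 to 2.75 for lev-1 and 11.1 to 12.8 for lev-10, above every TS-KO library.

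**Figure D4:**
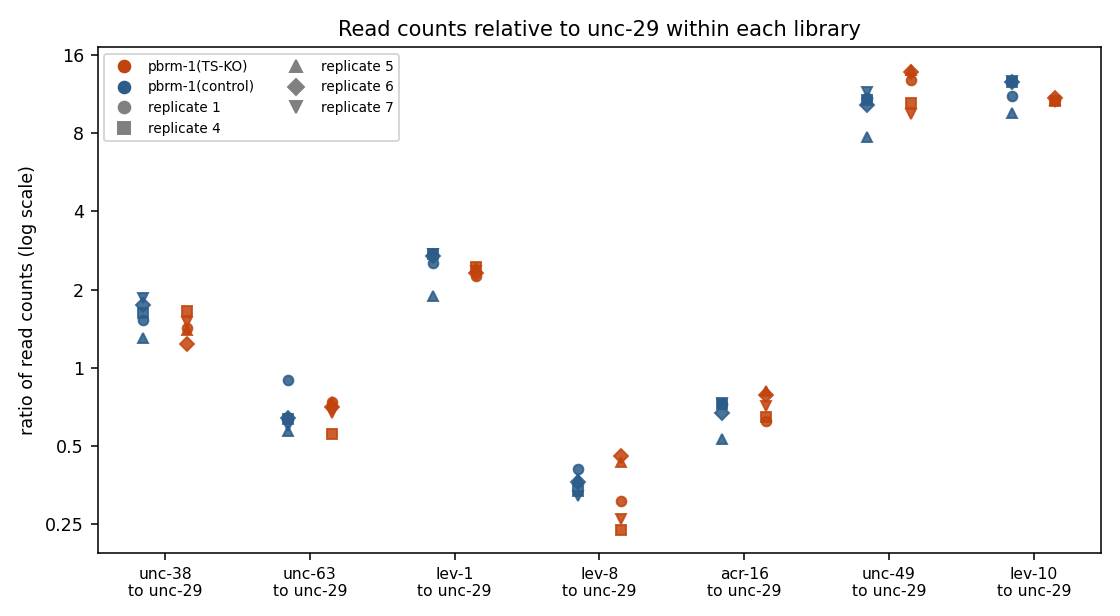
Ratio of the read count of each gene to that of unc-29 within each library (log axis, not corrected for length). Colors mark the strain and symbols the replicate number. The strains overlap in each of the 7 ratios, for lev-1 and lev-10 only through control replicate 5. The TS-KO ratios of lev-10 lie between 10.5 and 10.9.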

How the data were processed

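RNA from whole L1 larvae was measured in 10 libraries, 5 per strain. Reads were trimmed by the authors and aligned with STAR 2.5.2b to a C. elegans assembly (named WBcel325 in the methods and taken here as WBcel235), and the deposited values are raw counts per gene of unique exonic reads from featureCounts (Subread 1.5.2). Strandedness is not given in the sources used here. Coordinates, exons and overlaps came from the Ensembl annotation of WBcel235, which lists 46581 of the 46756 genes.

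Counts were analysed in R 4.3.3 with edgeR 4.0.16 (filterByExpr, TMM, quasi-likelihood F test without covariates, Benjamini-Hochberg adjustment over 16817 genes, threshold 0.05, no fold cutoff). Levels are TMM-scaled CPM, log2 CPM used a prior count of 2, and standard errors and intervals are approximate, derived from the F statistic. Alternatives were DESeq2 1.42.0, RLE size factors, no filter, the replicate number as a block, a floor of 10 counts per library, limma-voom 3.58.1 with sample quality weights, and fits without each library (10) or pair (5). The study used DESeq2, and edgeR took its place here as the main test. DESeq2 adjusted p for 16771 genes and left the rest without one. The scripts were tested on simulated counts.

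Same-numbered libraries were taken as pairs, since the methods state that the strains were reared in parallel on different days. The correlations of their deviations from the strain means were 0.505, 0.283, 0.124, -0.0514 and 0.351 for replicates 1, 4, 5, 6 and 7, against a median of -0.0972 for other pairs. TS-KO replicates 5 and 6 each correlated best with control replicate 1 and not with the control library of the same number. Within strains, 20 pairs of libraries differed beyond counting noise (chi-square ratios 3.44 to 43.2), and none was counted as a duplicate.

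The genes named are the 10 members, the further pathway genes, pbrm-1, genes whose exons overlap a member, and markers where a list is described. Members and lists were chosen with earlier results of these data known. Further pathway genes named without a call were chosen after their values were seen. The symbols unc-74 and opt-2 found no match in the names used here. Per gene, intervals rest on 5 libraries a strain, and the members had 273 to 6812 counts per library.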

Additional observations from a re-analysis of the deposited data

Results flagged for a closer look

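Among 36 groups of 5 libraries examined (the level of each member and 8 count ratios in each strain), 2 held a library far from the other 4, where chance gives about 1 in 20 groups. The ratio of lev-1 to unc-29 counts in control replicate 5 was 1.89, the lowest of its strain, and its gap to the next library was 0.752 of the range (critical value 0.71). The ratio of unc-63 to unc-29 counts in control replicate 1 was 0.900, the highest of its strain, with a gap of 0.790 of the range. In control replicate 5 the level of unc-29 was 15.7 CPM, and in control replicate 1 the level of unc-63 was 12.2 CPM, each the highest of the 10 libraries.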

How the results depend on the processing

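Over all genes, edgeR called 1299, DESeq2 called 1958 and limma-voom with sample quality weights 2899, and fits without a library or pair called 408 to 1204, with 811 without TS-KO replicate 5, 828 without TS-KO replicate 6, 839 without control replicate 6, and 781, 746, 529 and 408 without pairs 1, 4, 5 and 6. For the 10 members, edgeR called 0, DESeq2 2 and limma-voom 4, and the leave-out fits called 0 to 1. For the 22 further pathway genes, edgeR called 0, DESeq2 3, limma-voom 3 and the replicate block 1 (unc-50), and the leave-out fits called 0 to 1. Of the marker genes edgeR called 5, limma-voom 11 and the leave-out fits 3 to 6. With the replicate number as a block, 1826 genes and 0 members were called, and the block changed no other call among the members and further pathway genes. Estimates near 0 changed sign in some settings: under limma-voom the log2 fold change was 0.0407 for unc-29, 0.18 for unc-63, 0.15 for lev-8, 0.0143 for acr-8, 0.0148 for cam-1, 0.0081 for cwn-2 and 0.0243 for sdn-1, and with the replicate block it was 0.0153 for unc-63. Without a library or pair, it ranged from -0.0712 to 0.0602 for unc-29, -0.0753 to 0.162 for unc-63, -0.0900 to 0.0573 for molo-1, -0.17 to 0.0146 for eat-18, -0.0474 to 0.0146 for lev-9, -0.0397 to 0.0717 for nra-2, -0.0857 to 0.00694 for nra-4 and -0.00988 to 0.0604 for frm-3. The cause was not tested. Other single-gene estimates kept their direction in the alternatives run. With 5 libraries a strain, differences within the interval given for a gene were not excluded.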

Other observations

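The libraries that were high for unc-49 were also high for some other genes of the pathway, which were picked after their values were seen. In TS-KO replicates 1, 5 and 6 and in control replicate 1, nra-1 was at 75.4, 67.3, 74.2 and 63.8 CPM, and it was between 36.8 and 41.1 CPM in the other 6 libraries. In the same 4 libraries nlg-1 was at 111, 106, 116 and 107 CPM, and it was between 69.6 and 79.4 CPM elsewhere. The level of molo-1 was 25.03 to 27.7 CPM in these 4 libraries and 30.4 to 37.0 CPM in the others. The second principal component of all genes, with 24.8% of the variance, placed these 4 libraries at 19.1 to 30.2, control replicate 5 at 7.41 and the other 5 libraries at -32.0 to -10.1. The strain means of unc-49, nra-1 and nlg-1 therefore rest on 3 high libraries of TS-KO against 1 of the control, and no cause was tested.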
